A study of Gallus gallus with 6 samples.

Results

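The W chromosome is the sex chromosome that birds carry only in females. Hens are ZW and cocks are ZZ, so a W transcript can come only from female cells. The avian W is small and rich in repeats, and most of its known genes are surviving copies of genes that the Z also carries. These paired copies are called gametologs, and many of them encode broadly used regulators of RNA processing, transcription and chromatin. Reads of a W gene and of its Z counterpart can be hard to tell apart where the copies are near-identical.

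The members described here are all Ensembl rows that the deposited tables place on chromosome W and whose read counts sum to at least 10 over the 6 libraries. They number 50 of 141 W rows, out of 24881 Ensembl rows in all. The sum over libraries chose them, and it used no contrast between groups. Just inside the threshold, 3 members had 10 counts, and just outside it 6 W rows had 9 counts. Of the 141 W rows, 35.5% reached 10 counts, against 58.2% of Z rows and 67.1% of all rows. Only 3 members carry a gene name in the tables, HNRNPK, SPINW and SMAD7B. The other 47 have an Ensembl identifier with which the files pair no name. The gene table used for names held no Ensembl identifiers, so these 47 could not be looked up there. No role is given for them.

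The libraries came from primary muscle cells of chicken embryos at passage 1, with no transgene or other genetic change named in the labels. Differentiated myotubes, the multinucleated cells formed by fusion, were cultured in RPMI-1640 with 2% horse serum (n = 3). Proliferating myoblasts, their dividing precursors, were grown in RPMI-1640 with 15% fetal bovine serum (n = 3). Both media also held penicillin and streptomycin. The labels give neither the sex nor the number of the embryos behind each library. In such bulk samples, a different share of female cells and a different amount of W transcript per female cell cannot be told apart. Ensembl rows held between 21528951 and 23111863 counts per myotube library and between 15731818 and 20537315 per myoblast library. Whether replicate libraries are separate cultures or embryos is not in the labels. The p-values therefore cover the spread among these 6 libraries, which may be a technical spread.

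W transcripts took a larger share of the reads in myotubes than in myoblasts. Of every 1000000 counts on Ensembl rows, the 50 members held 406, 398 and 423 in the myotube libraries, against 173, 161 and 157 in the myoblast libraries. All 3 myotube libraries lay above all 3 myoblast libraries, and the groups were far apart relative to the spread within each. The counting error was small, since the exact 95% binomial interval ran from 389 to 406 per 1000000 in the lowest myotube library and from 166 to 179 in the highest myoblast library. These intervals cover counting error only. The mean was 409 ± 12.8 per 1000000 counts in myotubes and 164 ± 8.04 in myoblasts (SD, n = 3 each), a ratio of 2.50. The exact two-sided permutation p was 0.1, the smallest that 3 libraries against 3 allow.

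The share of the Z chromosome overlapped between groups. Z rows took 2.96, 3.09 and 3.17% of counts in myotubes and 3.13, 3.11 and 3.08% in myoblasts (exact two-sided permutation p = 0.8). Of counts on W and Z rows together, W members held 1.31% ± 0.0431 in myotubes and 0.524% ± 0.0221 in myoblasts (SD, n = 3 each; exact permutation p = 0.1).

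**Figure D1:**
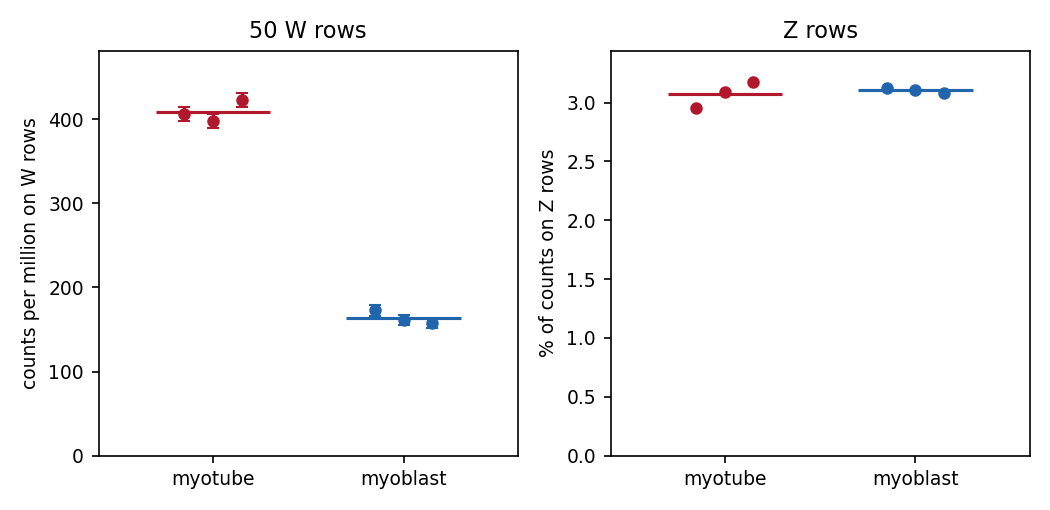
Share of counts per library on the 50 W rows (left, per 1000000 counts with exact 95% binomial intervals) and on Z rows (right, percent), myotubes in red and myoblasts in blue, with horizontal lines at group means. The myotube libraries sit between 398 and 423 per 1000000 counts on W, all above the myoblast libraries at 157 to 173, while the Z shares overlap.

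HNRNPK, which encodes a KH-domain RNA-binding protein, supplied the most W counts and is the one member whose name also belongs to a Z row. The W row is listed on the minus strand at 3066295 to 3085742, with a length of 1899 bases (build: not given in the sources used here). It had 4290, 3952 and 3750 counts in myotubes, against 1177, 1161 and 1402 in myoblasts. Scaled to library size as CPM (counts per 1000000, with TMM normalization of the totals), these were 184, 171 and 169.8 in myotubes and 75.6, 72.3 and 70.5 in myoblasts. The groups did not overlap. The fitted log2 fold change was 1.27 ± 0.06 (SE), or 2.40-fold, with an adjusted p of 3.22e-08 in edgeR's quasi-likelihood test.

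The Z row of HNRNPK, listed on the minus strand at 40077218 to 40095705, moved the other way. Its level was 251, 254 and 250.3 CPM in myotubes and 392, 395 and 392 CPM in myoblasts, again with no overlap. It fell 1.56-fold (log2 fold change -0.64 ± 0.05 SE; edgeR adjusted p = 1.29e-06). The sum of the W and Z rows was 427 ± 7.56 CPM in myotubes and 466 ± 2.85 CPM in myoblasts (SD, n = 3 each).

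Compared per length, as FPKM, the W row stood below the Z row in all 6 libraries. The W row had 99.3, 94.0 and 93.2 FPKM in myotubes and 39.9, 37.9 and 36.4 FPKM in myoblasts. The Z row had 159, 165 and 162 FPKM in myotubes and 244, 244 and 239 FPKM in myoblasts. The ratio of W to Z counts per listed length was 0.729 ± 0.0364 in myotubes and 0.194 ± 0.00716 in myoblasts (SD, n = 3 each). On the log2 scale this within-library ratio was higher in myotubes by 1.91, with an exact two-sided permutation p of 0.1 for the 1 pair tested, the smallest possible. Of the counts of the pair, the W row took 42.4, 40.2 and 40.4% in myotubes and 16.2, 15.5 and 15.2% in myoblasts. How reads that match both copies were assigned was not given in the sources used here, so the split between the copies is uncertain.

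**Figure D2:**
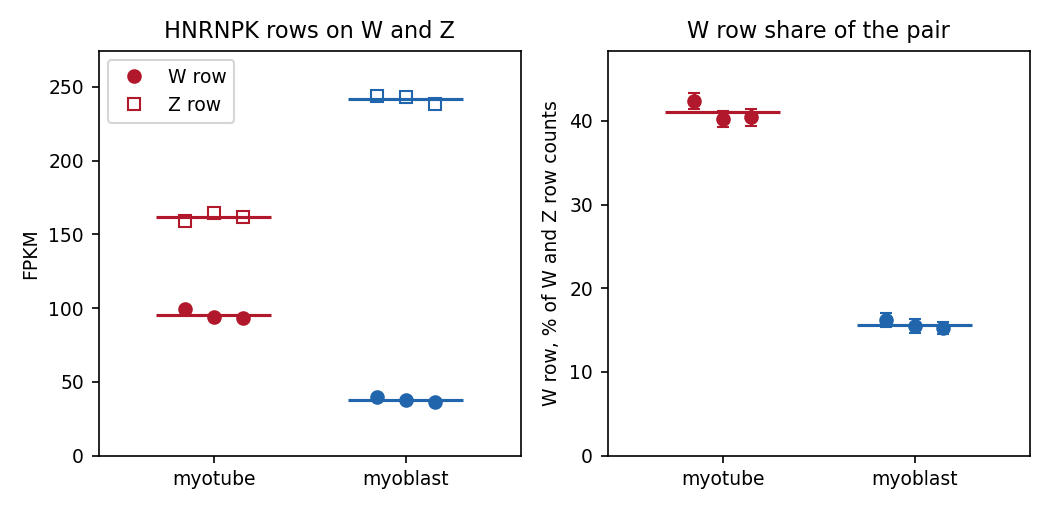
HNRNPK in each library: FPKM of the W row (filled circles) and the Z row (open squares) on the left, and the W row's percent of the counts of both rows with exact 95% binomial intervals on the right, myotubes in red and myoblasts in blue, lines at group means. The W row is higher and the Z row lower in myotubes, and the W share of the pair is 40.2 to 42.4% in myotubes against 15.2 to 16.2% in myoblasts.

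HNRNPK took nearly the same part of W counts in both groups. Its share of the members' counts was 43.7% ± 2.28 in myotubes and 43.6% ± 0.390 in myoblasts (SD, n = 3 each; exact permutation p = 0.9). Without it, the other 49 members together held 230.4 ± 15.7 per 1000000 counts in myotubes and 92.4 ± 4.84 in myoblasts, a ratio of 2.50.

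SPINW is a W copy of the spindlin gene family, whose members in mammals bind methylated histone H3. It had 26.8, 24.7 and 29.5 CPM in myotubes, against 9.96, 10.3 and 8.84 CPM in myoblasts. Every myotube library lay above every myoblast library, and the row rose 2.79-fold (log2 fold change 1.48 ± 0.11 SE; edgeR adjusted p = 8.64e-07). It is listed on the minus strand at 4303239 to 4411443.

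SMAD7B, whose name marks it as a relative of SMAD7, an inhibitor of TGF-beta signalling, did not pass the test. It had 5.97, 3.85 and 4.44 CPM in myotubes and 1.03, 4.92 and 3.37 CPM in myoblasts. Myoblast replicate 1 was far below the other libraries, and the remaining myoblast libraries fell within or near the myotube range. The fitted log2 fold change was 0.61 ± 0.40 (SE; edgeR adjusted p = 0.194). It was 1.06 without myoblast replicate 2 (edgeR adjusted p = 0.0449) and 0.21 without myoblast replicate 1 (edgeR adjusted p = 0.472), so single libraries decide this value.

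Of the 50 members, 19 had a mean of at least 1 FPKM over the 6 libraries and were tested with all other genes, and 31 lay under this filter. All 19 reached 1 FPKM on the myotube mean alone and 16 on the myoblast mean alone, so 3 rows passed only through the group where they were higher (ENSGALG00000031655, ENSGALG00000031355 and ENSGALG00000030716). Of the 19 tested rows, 15 were called higher in myotubes, 0 were called lower and 4 were not called, by edgeR's quasi-likelihood test with adjusted p under 0.05 as the threshold. At an unadjusted p under 0.05, 1 was lower, and DESeq2 also called 0 lower. Over all 12808 tested rows, 36.7% were called higher and 35.7% lower. Called rows that were at least 2-fold higher numbered 12 of the 19, against 14.1% of all tested rows. The 15 and the 12 include ENSGALG00000031655 and ENSGALG00000031355, which passed the filter only through myotubes. The median log2 fold change was 1.27 over the 19 tested W rows, -0.05 over 575 tested Z rows and 0.01 over all tested rows. The W median also includes the 3 rows that passed the filter only through myotubes. These had the highest log2 fold changes of the 19, so the filter bears on the W median. Such medians are a description, and no set test was run.

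**Figure D3:**
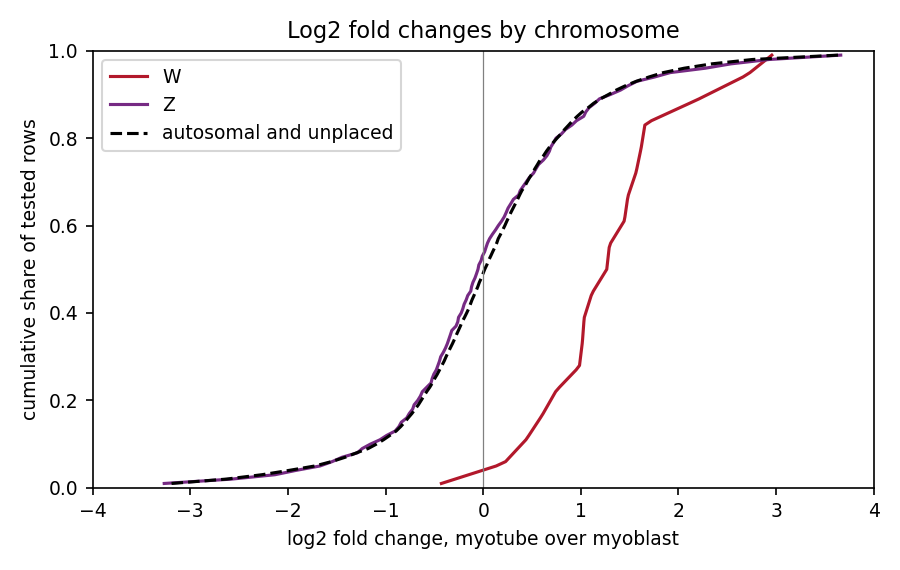
Cumulative share of tested rows by log2 fold change (myotube over myoblast) for W rows in red, Z rows in purple and autosomal and unplaced rows as a dashed line, drawn at each 0.01 of the share. The W curve crosses the middle at 1.27 and lies to the right of the Z curve over most of its range, and the Z median is -0.05. The W curve includes the rows that passed the FPKM filter only through myotubes, which form its upper end.

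Among rows without a name, those with the most FPKM mostly followed HNRNPK and SPINW. ENSGALG00000014184 (minus strand, 3908079 to 3957937) had 22.0, 20.1 and 23.2 CPM in myotubes and 12.1, 9.22 and 8.89 CPM in myoblasts. It rose 2.16-fold (log2 fold change 1.11 ± 0.13 SE; edgeR adjusted p = 2.87e-05). ENSGALG00000035118 (plus strand, 99100 to 170596) had 16.0, 16.9 and 16.5 CPM in myotubes and 8.61, 7.29 and 8.19 CPM in myoblasts, a 2.05-fold rise. In both rows every myotube library lay above every myoblast library.

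The next rows by level were less even. ENSGALG00000035780 (minus strand, 4176983 to 4223623) had 8.81, 7.13 and 6.75 CPM in myotubes and 8.10, 5.48 and 6.08 CPM in myoblasts, so its groups overlapped and it was not called (log2 fold change 0.21 ± 0.18 SE; edgeR adjusted p = 0.302). ENSGALG00000036886 (minus strand, 31988 to 47184) had 3.26, 3.63 and 4.17 CPM in myotubes and 2.44, 1.62 and 1.56 CPM in myoblasts, a 1.98-fold rise (edgeR adjusted p = 0.00307). ENSGALG00000040263 (plus strand, 2000281 to 2003728) had 105, 128 and 156 counts in myotubes and 35, 24 and 40 counts in myoblasts, a 2.96-fold rise after TMM scaling (edgeR adjusted p = 0.000153). In the last 2 rows the groups did not overlap.

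By the edgeR fit, the largest called rise among the tested rows was that of ENSGALG00000031655, listed on the plus strand at 1770234 to 1810529. It had 84, 59 and 86 counts in myotubes, against 9, 6 and 6 in myoblasts. All myotube libraries lay above all myoblast libraries, and the fitted change was 8.07-fold (log2 fold change 3.01 ± 0.32 SE; edgeR adjusted p = 1.41e-05). The row passed the FPKM filter only through myotubes, with a mean of 2.25 FPKM in myotubes and 0.270 FPKM in myoblasts, so a rise was built into its selection. On the log2(FPKM + 1) scale, which understates changes of low rows, limma gave 1.35 for it, below 1.36 for ENSGALG00000040263 and 1.39 for ENSGALG00000030716. On the log2(FPKM + 0.1) scale limma gave 2.68 for it, again below ENSGALG00000030716, so its rank depends on the scale. ENSGALG00000031355 rose 4.60-fold with 44, 50 and 122 counts in myotubes and 14, 13 and 8 in myoblasts. It too passed the filter only through myotubes, with a mean of 2.02 FPKM in myotubes and 0.426 FPKM in myoblasts. Its size rests on myotube replicate 3, without which the rise was 2.93-fold (edgeR adjusted p = 0.00401). This row, and those in the next paragraph, were chosen for naming after their values were seen.

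Only ENSGALG00000043838 had a negative log2 fold change among the 19 tested rows. It had 39, 43 and 47 counts in myotubes and 50, 32 and 63 in myoblasts, or 1.89 ± 0.228 CPM in myotubes and 2.79 ± 0.691 CPM in myoblasts (SD, n = 3 each). The groups overlapped, and it was not called (log2 fold change -0.57 ± 0.24 SE; edgeR adjusted p = 0.0581). Without myoblast replicate 2 it was called lower, with a log2 fold change of -0.76 (edgeR adjusted p = 0.0160). Among the rows called higher, the calls of 3 also turned on single libraries. ENSGALG00000030382 (1.68-fold higher) reached an edgeR adjusted p of 0.0174, but 0.0620 without myotube replicate 2, 0.0636 without myotube replicate 3, 0.0556 without myoblast replicate 1 and 0.0673 without myoblast replicate 2. ENSGALG00000038064 (1.36-fold higher) reached 0.0272, but 0.0536 and 0.0833 without myotube replicates 1 and 2, and 0.0797 and 0.0666 without myoblast replicates 1 and 2, all edgeR adjusted p. ENSGALG00000041500 (2.02-fold higher) reached 0.0177, but 0.0742 without myotube replicate 2 and 0.0705 without myoblast replicate 3, again by edgeR adjusted p. DESeq2 on all 6 libraries did not call ENSGALG00000041500 (DESeq2 adjusted p = 0.0511).

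**Figure D4:**
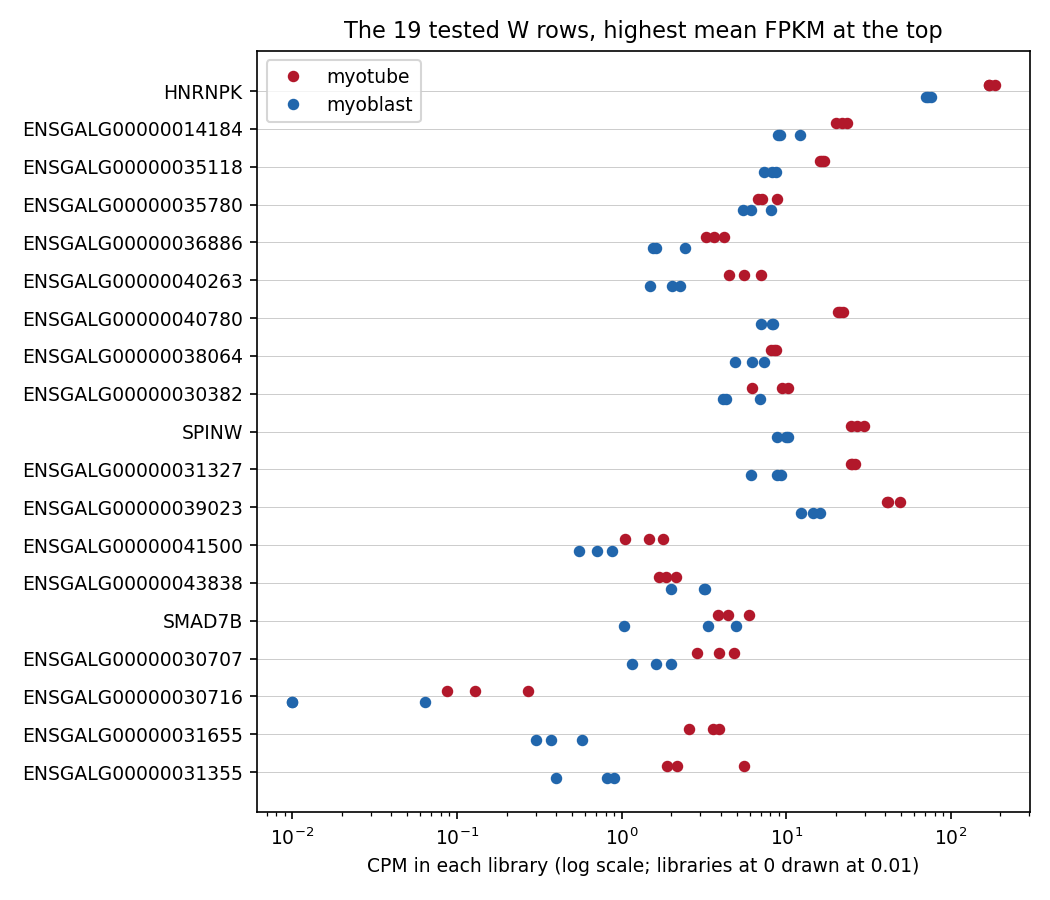
CPM of the 19 tested W rows in each library on a log scale, myotubes in red above myoblasts in blue for each row, ordered by mean FPKM with the highest at the top. In 15 of the 19 rows the red points lie wholly to the right of the blue ones, against 38.6% of all 12808 tested rows. The 15 include the rows that passed the FPKM filter only through myotubes. HNRNPK stands apart at 169.8 to 184 CPM in myotubes and 70.5 to 75.6 CPM in myoblasts.

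The rows spread around the rise of the summed W counts, which was 1.32 on the log2 scale. That value uses library totals, while the fold changes of the rows use TMM normalization, so the scales differ slightly. For HNRNPK the log2 fold change was 1.27 with TMM and 1.32 with library totals. Of the 19 tested rows, 11 had a log2 fold change within 0.5 of that value, 3 lay more than 0.5 above it and 5 more than 0.5 below it. The rows above were ENSGALG00000031655, ENSGALG00000031355 and ENSGALG00000030716, which are the 3 rows that passed the filter only through myotubes, so the filter bears on this upper end. The last of these, a 66-base row, had 11 counts in myotubes and 1 in myoblasts and was not called (edgeR adjusted p = 0.0609). Limma called it higher with a pseudocount of 1 (limma adjusted p = 0.00705) and of 0.1 (limma adjusted p = 0.0104), so its call depends on the method. The rows below were ENSGALG00000043838, ENSGALG00000035780, ENSGALG00000038064, SMAD7B and ENSGALG00000030382.

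**Figure D5:**
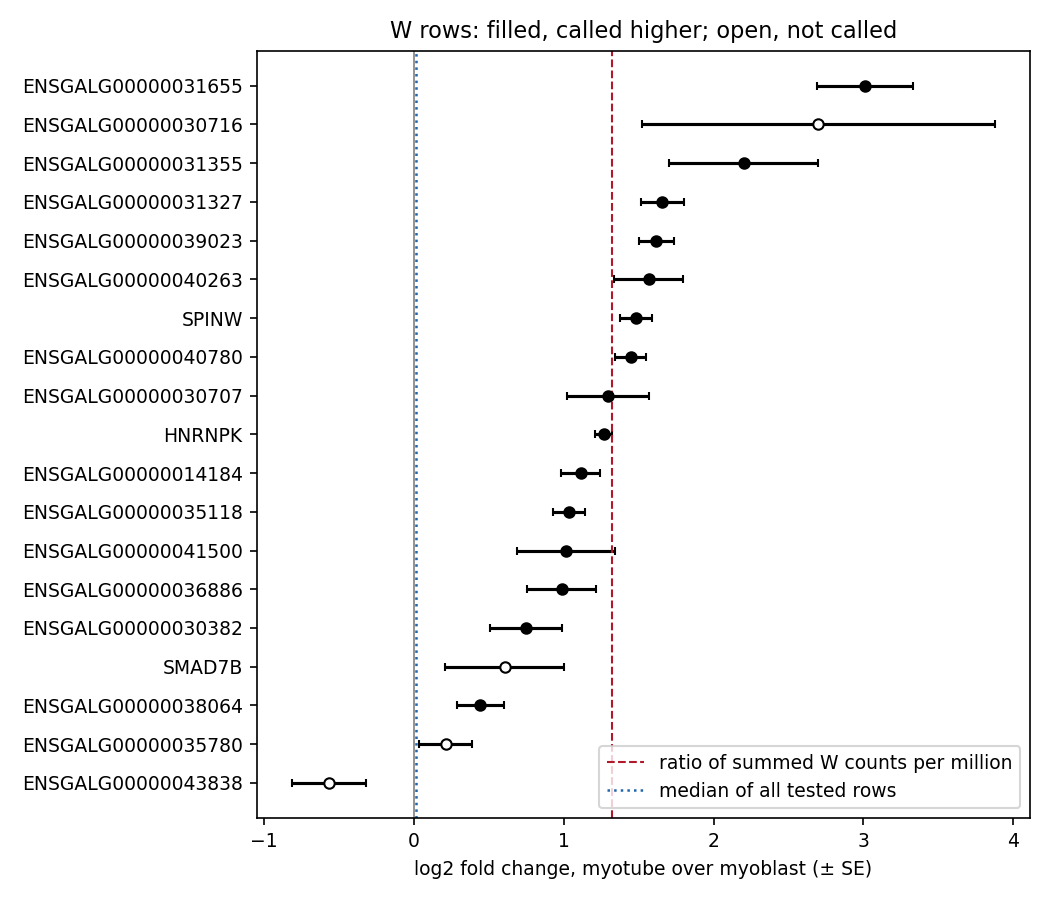
Log2 fold change (myotube over myoblast, ± SE) of each tested W row, filled where called higher in myotubes and open where not called. The dashed line marks the ratio of the summed W share (1.32, without TMM normalization) and the dotted line the median of all tested rows (0.01). Of the 19 points, 18 lie above 0.

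The 31 members under the FPKM filter were low in every library. Together they held 407, 389 and 399 counts in the myotube libraries, against 95, 93 and 81 in the myoblast libraries. In a fit on all rows with at least 10 counts, which takes in all 50 members, 32 were called higher and 0 lower, against 33.1% and 30.8% of the 16698 rows in that fit. At an unadjusted p under 0.05, 1 of the 50 was lower in edgeR. In 32 of the 50 all myotube libraries lay above all myoblast libraries, against 37.1% of those rows. The reverse held for 0 of the 50, against 32.4%. Since the members were chosen by a sum over both groups, a row with few counts could enter through myotubes alone, so these counts are a description. The median log2 fold change over the 50 was 1.38. It was 1.33 with the 6 rows at 0 in myoblasts set to their ratio against a floor of 3 myoblast counts. The 9 rows with 1 to 3 myoblast counts kept their fitted values, so this median does not remove the effect of the selection.

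Some of these low rows had almost no myoblast counts. No member lacked counts in myotubes, while 6 had no count in any myoblast library, with 10 to 32 counts over the myotube libraries. Set against a floor of 3 counts over the myoblast group, their ratios of myotubes to myoblasts ran from 2.51 to 8.02. The floor makes no allowance for error in the myotube counts. These 6 rows reached 10 counts through myotubes alone, so a rise was built into their selection. The same holds for every other member with at least 10 counts over myotubes and fewer than 10 over myoblasts. Among these are ENSGALG00000046501 (23 and 1) and ENSGALG00000044652 (15 and 1). Of the 6 rows at 0 in myoblasts, ENSGALG00000046264 (10, 0 and 22 myotube counts) and ENSGALG00000045623 (7, 0 and 21) had the highest ratios, and their groups overlapped. ENSGALG00000032901, chosen after its values were seen, had 37, 24 and 27 counts in myotubes and 1, 1 and 0 in myoblasts. The ratio was 33.1 (exact 95% interval 8.89 to 278, counting error only). This row too reached 10 counts through myotubes alone, so a rise was built into its selection and the interval makes no allowance for that. Of the 50 members, 50, 48 and 50 had a count in the myotube libraries and 38, 36 and 35 in the myoblast libraries. Since some rows became members through myotubes alone, fewer members with a count in myoblasts is in part built into the selection. Of all 24881 Ensembl rows, 17954, 17909 and 17917 had a count in myotubes and 16783, 16898 and 17188 in myoblasts. The myoblast libraries had fewer counts in all. Myoblast replicate 3 had 35 members with a count at 20537315 Ensembl counts, and myoblast replicate 1 had 38 at 15731818. Myotube replicate 3 had 50 at 21528951. The parts of depth and of the selection in these numbers were not tested.

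A set of 10 of the low rows had listed lengths between 2035 and 2085 bases although they spanned 66979 to 1972488 bases of the W. The near-equal lengths were noticed in the table, so the set gets no test. The 10 rows held 129, 115 and 158 counts in myotubes and 31, 35 and 26 in myoblasts. Most of these counts came from ENSGALG00000027170 (174 in myotubes and 58 in myoblasts) and ENSGALG00000046516 (86 and 26). Of the 10 rows, 5 had no myoblast count, and these became members through myotubes alone. So did ENSGALG00000044400 (25 in myotubes and 3 in myoblasts) and ENSGALG00000044459 (10 and 1). Whether these rows are copies of 1 sequence was not tested, since no sequence was used here.

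The listed positions of the members run from 31988 to 5156723, with 28 on the plus strand and 22 on the minus strand. By listed start and end, all but 1 of them overlap another listed W row, and 47 overlap one on the same strand. These spans can be far longer than the listed lengths, so an overlap need not lie in counted bases. Counts are uncertain where the counting had to choose between rows, and how often it had to was not tested. The member that overlaps none is ENSGALG00000039023, on the minus strand at 5058576 to 5156723. It had 41.4, 41.0 and 49.4 CPM in myotubes, against 16.0, 12.3 and 14.6 CPM in myoblasts. Every myotube library lay above every myoblast library, and it rose 3.07-fold (log2 fold change 1.62 ± 0.11 SE; edgeR adjusted p = 7.12e-07).

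Markers of cell types differed between the same libraries. The muscle genes MYOD1, MYF5, MYOG, DES and CHRNA1 were present in all libraries, at a summed level of 988 to 1099 CPM in myotubes and 1389 to 1485 CPM in myoblasts. Of these, MYOG, a factor of differentiation, was higher in myotubes (log2 fold change 0.70; edgeR adjusted p = 1.44e-05), as was CHRNA1, an acetylcholine receptor subunit gene (0.77; 3.51e-07 by edgeR). MYF5 and MYOD1, which are regulators of the muscle lineage, were lower in myotubes (log2 fold changes -3.52 and -1.26; edgeR adjusted p = 1.18e-08 and 1.60e-07), as was DES, which encodes the filament protein desmin (-0.18; 0.0197 by edgeR). PAX7 matched no named row. The MYH genes, which the planned muscle list also held, were left out, so the summed muscle level does not cover them. The 3 fibroblast markers COL1A2, PDGFRA and DCN summed to 7370 to 8513 CPM in myotubes and 2806 to 2849 CPM in myoblasts. Of 6 blood and macrophage markers 4 matched a row, and these summed to 136 to 149 CPM in myotubes and 553 to 571 CPM in myoblasts. Of 4 germ cell and gonad markers 3 matched, and these summed to 7.47 to 12.5 CPM in myotubes and 1.96 to 2.24 CPM in myoblasts. Among them DDX4, a germ cell RNA helicase gene on Z, had 427 counts over the myotube libraries and 4 over the myoblast libraries. AMH had 241 counts over the myotube libraries and 77 over the myoblast libraries, and DMRT1 had 26 over the myotube libraries and 27 over the myoblast libraries. No matched marker of these lists was at 0 in all libraries. The part of these cell types in the W difference was not tested.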

How the data were processed

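Trizol RNA of the 3 myotube and 3 myoblast libraries was sequenced on an Illumina platform, per the labels' protocols. The authors deposited 1 table per library with raw counts and FPKM (counts scaled to gene length and depth), per the file headers. The submitters' processing notes name HISAT and HTSeq without versions. Build, strand setting and handling of reads with several matches: not given in the sources used here.

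Groups came from the labels. Only Ensembl rows were used. Loci without an Ensembl identifier (none on W, 1069 per myoblast and 1710 per myotube table) were left out and held 1.66 to 2.12% of counts. Each myotube table also has 2 rows that name no gene, with no counts. Rows with a mean of at least 1 FPKM were tested together, 12808 in all, with edgeR 4.0.16 in R 4.3.3 (quasi-likelihood F-test, TMM, two-sided, Benjamini-Hochberg over all rows, called at an adjusted p under 0.05). SE is the log2 fold change divided by the square root of F. Shares and ratios were tested by exact permutation with scipy 1.17.1. Ratios between W and Z rows used a pseudocount of 0.5 counts. Partner rows were matched by identical symbol, which gave 1 pair, HNRNPK. SPINW and SMAD7B were not compared with a partner row under another symbol.

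The naming rule took every named W row, the 5 unnamed rows with the most FPKM and the unnamed rows with the largest called rise and fall (no row was called lower). Other rows are named after their values were seen. The members and lists were chosen with earlier results of these data known. Alternatives were DESeq2 1.42.0, limma 3.58.1 on log2 FPKM with a pseudocount of 1 or 0.1, other size factors, filters and thresholds, the replicate number as a block, and leaving out each library. The test was tried on simulated data first.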

Additional observations from a re-analysis of the deposited data

Results flagged for a closer look

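The 91 W rows with fewer than 10 counts were outside the comparisons above. Of these, 42 had no count and 49 had 1 to 9. They held 168 counts over the myotube libraries and 18 over the myoblast libraries, and what drew attention is that the first number is above the second in rows no comparison used. By library there were 73, 41 and 54 counts in myotubes, against 4, 7 and 7 in myoblasts. Adding these rows to the members changed the log2 ratio of the W share from 1.32 to 1.33.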

How the results depend on the processing

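With 15 alternative fits, 12 of the 15 W rows called higher stayed called higher in every one. The count of W rows called higher was 32 with all rows of at least 10 counts and 28 with a mean FPKM of at least 0.1. It was 12 at an adjusted p under 0.01. At the same settings, 5527, 5426 and 3982 of all rows were called higher, the first of 16698 tested rows and the last of 12808. How many rows were tested at a mean FPKM of 0.1 is not given here. The 2 looser filters tested more members, and these include rows that passed through myotubes alone. It ranged from 12 to 14 with 1 library left out, and the count called lower from 0 to 1. The median log2 fold change of tested W rows was 1.01 by limma on log2(FPKM + 1), a scale that compresses low values, and 1.09 to 1.29 with 1 library left out. The log2 ratio of the W share was 1.29 to 1.36 with 1 library left out and 1.68 in the 1 row that overlaps no other. The HNRNPK ratio difference was 1.87 to 1.94 on the log2 scale with 1 library left out. With 1 library left out, the counts of all rows called were 4324 to 4598 higher and 4259 to 4539 lower. Library numbers are shared between groups. Deviations of same-numbered libraries correlated at -0.08, 0.17 and -0.26, and those of differently numbered libraries at -0.21 to 0.28. Deviations from means of 3 libraries cannot decide whether the numbers pair the libraries. With the number as a block the counts were 15 W rows higher and 0 lower, and 4447 higher and 4337 lower of all rows. Leaving out the rows of 2000 to 2100 bases was an alternative chosen after seeing the data. None of these rows was among the 19 tested rows, so the 15 calls higher and 0 lower could not change. In the fit on all rows with at least 10 counts, 24 of the other 40 members were called higher and 0 lower. Of all 16698 rows in that fit, 33.1% were called higher and 30.8% lower. The 40 still include rows that reached 10 counts through myotubes alone, such as ENSGALG00000032901 (88 counts in myotubes and 2 in myoblasts). With 3 libraries per group no permutation p can fall below 0.1 (0.2 with 1 library left out), and depth limits rows under 10 counts.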
